A study of Mus musculus and synthetic construct with 15 samples.

Results

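Reporter RNA from the atria was set against reporter RNA from the ventricles of mouse hearts, region by region, in a massively parallel reporter assay. In this assay a pool of candidate regulatory sequences is packed into an adeno-associated virus (here AAV9), and the RNA that each sequence gives rise to is counted by sequencing. Wild-type pups received the pool at postnatal day 0, and both chambers were collected at postnatal day 7. The atrial group and the ventricular group had 5 RNA libraries each, labelled as cardiomyocytes, and 5 further libraries held the DNA of the AAV pool. All RNA groups shared the genotype and the virus, and no uninfected or empty-vector group was used here. The comparison covered the 2601 of 3820 regions that had a mean of at least 10 counts in the 5 DNA libraries, and 1219 regions were below that minimum. At the edge of the minimum, 5 regions had a mean of exactly 10 DNA counts, with a median over them of 44.8 atrial and 54.8 ventricular counts per library. The 4 regions just under it, at 9.8 DNA counts, had 63.1 and 114.4. Each region is 400 bp of the mouse genome (build mm10), and regions are named here by the nearest protein-coding gene within 100 kb of their midpoint, which is a label of position and not a measured target.

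Enhancers are stretches of DNA that raise transcription from a promoter when transcription factors bind them, and many work in some cell types only. Atrial and ventricular cardiomyocytes share the machinery of contraction but differ in myosin chains, ion channels, peptide hormones and identity factors. Tbx5 and Nr2f2 (COUP-TFII) are transcription factors tied to atrial gene programmes, and Irx4 is a homeobox factor of the ventricle. The acetyltransferase p300 is a coactivator often found at active enhancers.

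Sequence could be read for the regions that overlap the promoter window of an annotated gene, and 28 tested regions overlapped such a window by at least 200 bp. Of these 28, 6 favoured atrium and 5 ventricle by the test described below, against 15.8% and 15.1% of all tested regions. Above DNA in the favoured chamber were 7 of the 11, against 181 of 412 atrial and 324 of 392 ventricular calls over all tested regions. The 5 of those 7 that differed by at least 1.5-fold are shown. This choice was made after their values were seen. They are printed because their RNA differed between chambers. Sequences are RefSeq promoter windows (build GRCm38, the same as mm10), 5′ to 3′ on the gene's strand, cut to the bases before the annotated start that lie inside the tested region. Capitals mark matches to the letters of a motif, on either strand.
Gm34026: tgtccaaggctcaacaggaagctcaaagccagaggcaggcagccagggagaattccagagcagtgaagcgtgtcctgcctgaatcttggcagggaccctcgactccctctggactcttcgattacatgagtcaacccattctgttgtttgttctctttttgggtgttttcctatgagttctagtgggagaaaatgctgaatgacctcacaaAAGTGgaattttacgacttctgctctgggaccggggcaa
Gm35837: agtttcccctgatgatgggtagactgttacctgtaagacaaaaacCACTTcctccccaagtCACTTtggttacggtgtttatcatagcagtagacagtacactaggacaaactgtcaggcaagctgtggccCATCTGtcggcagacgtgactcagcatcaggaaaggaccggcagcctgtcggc
Sh2d6: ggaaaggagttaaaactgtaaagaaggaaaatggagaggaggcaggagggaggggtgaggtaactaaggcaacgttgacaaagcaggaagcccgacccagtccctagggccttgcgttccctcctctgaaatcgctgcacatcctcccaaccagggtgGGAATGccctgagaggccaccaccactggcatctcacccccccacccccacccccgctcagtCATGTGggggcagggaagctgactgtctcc
Gm31013: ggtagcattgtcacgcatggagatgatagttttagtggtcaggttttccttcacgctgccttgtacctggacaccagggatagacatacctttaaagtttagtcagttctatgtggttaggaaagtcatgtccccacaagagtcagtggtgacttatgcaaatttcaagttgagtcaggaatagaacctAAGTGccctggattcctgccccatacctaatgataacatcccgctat
Gm32492: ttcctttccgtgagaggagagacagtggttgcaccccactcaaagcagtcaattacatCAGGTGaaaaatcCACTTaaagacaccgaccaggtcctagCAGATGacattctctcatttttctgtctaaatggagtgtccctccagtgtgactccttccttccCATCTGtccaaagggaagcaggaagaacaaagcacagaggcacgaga

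The window of Gm34026 lies at chr8:106399795-106400044 on the plus strand, that of Gm35837 at chr10:77225403-77225586 (plus), that of Sh2d6 at chr6:72520037-72520286 (minus), that of Gm31013 at chr9:30781448-30781683 (minus) and that of Gm32492 at chr19:56668858-56669066 (plus). All but Sh2d6, which encodes an SH2-domain protein, are annotated as long noncoding RNA genes. The motifs searched were AGATAA for GATA factors, a pair of MEF2 motifs, AGGTGT (T-box), GGAATG (TEAD), AAGGTCA (nuclear receptor), AAGTG (NK2) and CANNTG (E-box), and no matches overlapped each other in the printed windows. NK2 letters occurred once each in Gm34026, Gm31013 and Gm32492 and at 2 places in Gm35837. Over 32851 promoter windows cut to the same lengths, AAGTG was present in 31.6% (at 184 bases) to 40.7% (at 250 bases). E-box letters stood at 1 place in Gm35837, 1 in Sh2d6 and 3 in Gm32492, against a share of 54.8% to 66.2% of all windows with at least 1 match. Sh2d6 held the single TEAD match, found in 12.6% of windows of its length. GATA, MEF2, T-box and nuclear receptor letters were not in these windows. In all windows of 250 bases their shares were 9.99% for GATA, 0.103% and 0.481% for the MEF2 pair, 11.8% for T-box and 4.08% for the nuclear receptor letters.

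The Gm34026 region (chr8:106399742-106400141, nearest protein-coding gene Zfp90) had 317, 362, 328, 307 and 441 CPM (counts scaled to a common library size, after TMM) in atrial replicates 1 to 5 and 116, 140.4, 119, 157 and 151 in the ventricular ones. Its atrial RNA was 2.56-fold higher, a log2 atrium over ventricle of 1.36 ± 0.15 (SE, edgeR, adjusted p = 6.2e-06). In the Sh2d6 region (chr6:72519980-72520379) the atrial values were 227, 236, 252, 217 and 219 CPM and the ventricular values 139, 129, 112, 124 and 110.2. The groups did not overlap in either region. The Gm35837 region (chr10:77225403-77225802) reached 460.04, 324, 177, 179.7 and 167 CPM in atrium and 125, 129.8, 146, 137 and 124 in ventricle, with replicates 1 and 2 far above the other atrial libraries. The regions of Gm32492 (chr19:56668858-56669257) and Gm31013 (chr9:30781284-30781683) were higher in ventricle. Gm32492, whose nearest protein-coding gene is Adrb1 (the beta-1 adrenergic receptor), averaged 652 ± 93.9 CPM in atrium against 1477 ± 90.3 in ventricle (SD, n = 5), and Gm31013 had 454 ± 80.5 and 809.8 ± 85.2.

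Total counts ran from 877773 in atrial replicate 1 to 3781726 in ventricular replicate 4, and 3 counts, the limit that a count of 0 allows, correspond to 0.793 to 3.42 CPM. Both replicate 1 RNA libraries stood apart: the 488 regions with no DNA count held 0.0197% of atrial and 0.0162% of ventricular counts there, against 3.34% to 4.2% in RNA replicates 2 to 5. Whether these DNA libraries hold the pool that gave RNA replicates 2 to 5 was not tested. The active, low and crossing classes may therefore rest on DNA that does not match those replicates. Counts of these classes are also given with RNA over DNA from replicates 2 to 5. That fit keeps the same DNA libraries, so it does not check the match. The RNA over DNA of single regions is given from all libraries. The files hold reporter counts and no endogenous transcripts, so markers of atrium, ventricle or other cell types could not be checked. Nothing in the labels says that replicates are separate animals, so p-values measure the spread between these libraries, which may be technical. In bulk samples, fewer transduced cells and less reporter RNA per cell cannot be told apart.

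Between the chambers 412 regions had more reporter RNA in atrium (15.8% of those tested) and 392 in ventricle (15.1%), by the quasi-likelihood test of edgeR with Benjamini-Hochberg adjusted p under 0.05. Differences of at least 2-fold were found for 127 atrial (4.88%) and 79 ventricular calls (3.04%). In 593 regions (22.8%) the atrial and the ventricular libraries had no overlap in CPM, with atrium above in 271 (10.4%) and ventricle above in 322 (12.4%). This split depends on the scaling. When libraries were scaled on the 469 regions of the deposited group Neg alone, the median log2 atrium over ventricle of all regions rose by 0.15, and 563 regions favoured atrium and 237 ventricle, so that atrial regions were 70.4% of the calls against 51.2%. Against a 1.5-fold difference as the null, 95 and 86 regions passed.

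Setting each chamber against DNA separated these calls. In atrium 999 regions were above DNA (38.4%) and 945 below (36.3%), and in ventricle 1129 were above (43.4%) and 983 below (37.8%). Since RNA and DNA libraries are scaled to the same bulk, above and below are relative to the typical region. Of the 412 regions higher in atrium, 181 were above DNA in atrium (6.96% of regions tested), 80 were not different from DNA there (3.08%) and 151 were below DNA even in atrium (5.81%). Of the 392 higher in ventricle, 324 were above DNA in ventricle (12.5%), 35 not different (1.35%) and 33 below (1.27%). The atrial calls thus held 151 differences between low values, and the ventricular calls 33. The libraries of the favoured chamber enter both calls, so this division is a description. With Neg scaling the active regions numbered 287 in atrium and 215 in ventricle, and the low regions 164 and 8. With activity taken from RNA replicates 2 to 5 the active counts were 181 and 315 and the low counts 159 and 40. In that fit 1010 regions were above and 964 below DNA in atrium, and 1104 and 1036 in ventricle. Of 101 named regions, 97 stayed on the same side of the DNA threshold in atrium and 99 in ventricle. Among those given below that did not, Shb was no longer below DNA in atrium, Plekhh1 was, Rprd1b no longer crossed DNA, and Sh2d6 was below DNA in ventricle.

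**Figure D1:**
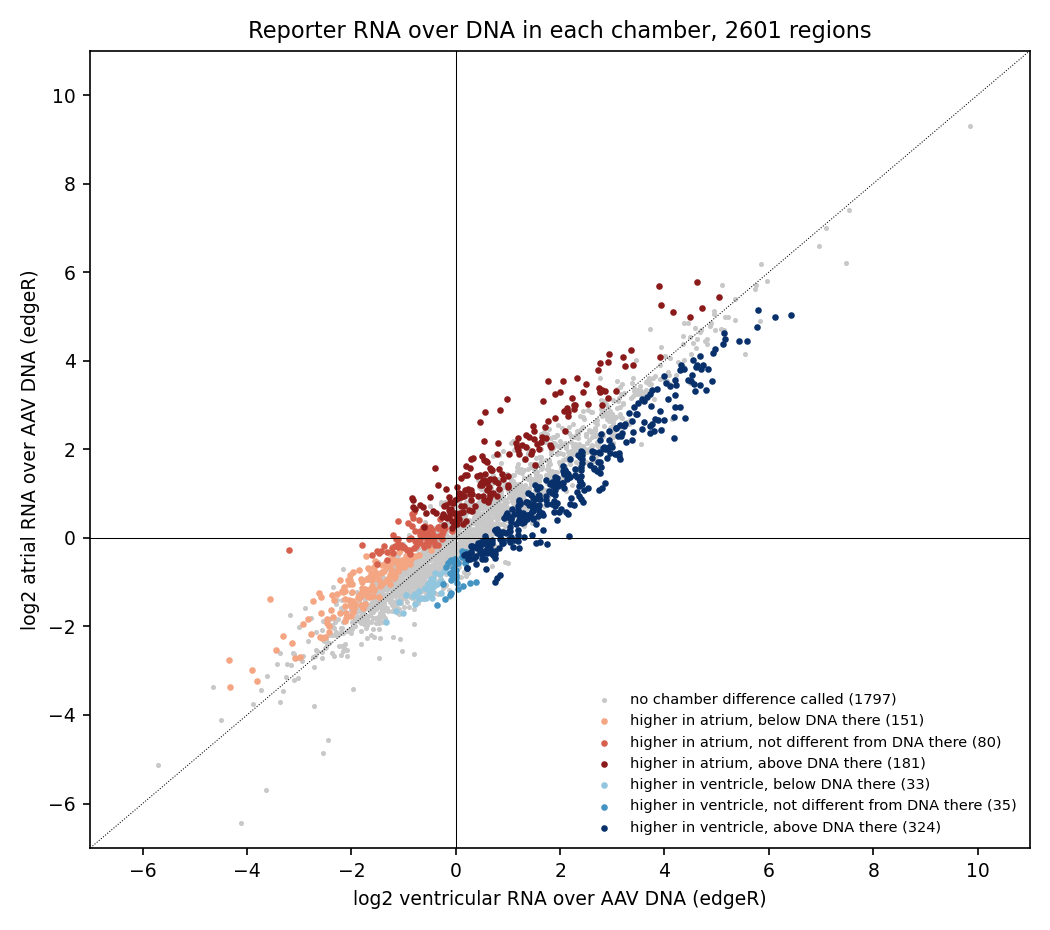
Each point is 1 of the 2601 tested regions, with log2 ventricular RNA over AAV DNA on the horizontal axis and log2 atrial RNA over AAV DNA on the vertical axis (edgeR); grey points had no chamber call, red shades were higher in atrium and blue shades higher in ventricle, darker where the favoured chamber was above DNA. The lower left holds the 151 atrial and 33 ventricular calls below DNA in both chambers beside other points, and by their definition the 324 active ventricular calls lie right of the vertical zero line.

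Activity in both chambers was common among the active selective regions, but less so than over all regions above DNA. Of the 999 regions above DNA in atrium and the 1129 above it in ventricle, 908 were above in both. Of the 908 regions above DNA in both chambers, 121 favoured atrium, 232 ventricle and 555 had no chamber call. Of the 181 active atrial regions, 121 were also above DNA in ventricle, 48 were not different from DNA there and 12 were below it. Of the 324 active ventricular regions, 232 were also above DNA in atrium, 69 not different and 23 below. The 822 regions below DNA in both chambers included the 151 low atrial and 33 low ventricular calls. The median fold between chambers was 1.82 for active atrial regions, 1.78 for those not different from DNA and 1.60 for the low ones. The ventricular medians were 1.64, 1.52 and 1.40. Over all tested regions the median size of the difference was 1.29-fold. DNA abundance differed between classes, with a median of 246 DNA counts in active atrial, 1703 in low atrial, 241 in active ventricular and 1432 in low ventricular regions. The size of called differences also fell with DNA abundance. Its median on the log2 scale was 0.93 at 10 to under 100 DNA counts, 0.77 at 100 to under 300 and 0.64 at 300 or more. The part of DNA abundance in the folds of the classes was not tested.

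The most selective active atrial region lay 7404 bp from Myl7 (chr11:5889034-5889433), the gene of the atrial regulatory myosin light chain. It had 1705, 1366, 1137, 1252 and 1906 CPM in atrial replicates 1 to 5 and 414, 245, 253, 215 and 279 in ventricular ones. The lowest atrial library was above the highest ventricular one, and the fold was 5.25 (log2 2.39 ± 0.20 SE, adjusted p = 1.6e-06). Its RNA over DNA was 2.85 ± 0.15 on the log2 scale in atrium and 0.57 ± 0.15 in ventricle. A region with no coding gene within 100 kb, at chr13:35398107-35398506, gave 2021, 1729, 1614, 1713 and 1796 CPM in atrium and 403, 399, 379.9, 405 and 395 in ventricle. The ventricular values of this region spanned a narrow range, and its fold of 4.48 (log2 2.16 ± 0.081, adjusted p = 6.3e-11) had the smallest error among the 12 active atrial regions listed. Near Tbx5, at chr5:119794240-119794639, the atrial values were 238, 189, 238, 282 and 206 CPM and the ventricular values 59.5, 60.1, 63.7, 51.7 and 76.2, a 3.7-fold difference (log2 1.89 ± 0.18, adjusted p = 9.1e-07).

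Other active atrial regions were less even across libraries. In the body of Grk5 (a kinase of G-protein-coupled receptors), chr19:60939780-60940179 gave 184, 49.8, 167, 29.7 and 68.2 CPM in atrium against 11.8, 24.5, 22.9, 27.3 and 14.9 in ventricle. Atrial replicates 1 and 3 were high there, and the lowest atrial value was close to the highest ventricular one. Near Bmp10, which encodes a growth factor of the heart, chr6:87443218-87443617 gave 153, 26.9, 25.3, 77.1 and 60.2 CPM against 15.7, 11.1, 10.5, 18.3 and 14.9. Replicate 1 was again the highest atrial library, and the log2 difference was 3.21 in the replicate 1 pair and 1.79 in replicates 2 to 5. Both regions were sparse in DNA, with 29.6 and 14.2 mean counts. Near Pdzd2, a gene of a PDZ-domain protein, chr15:12749981-12750380 had 700.2, 553, 608, 509 and 602 CPM in atrium and 218, 144, 159.9, 207 and 154 in ventricle (log2 1.75 ± 0.15, adjusted p = 2.8e-07). This region was as selective in the replicate 1 pair (1.68) as in replicates 2 to 5 (1.78). Lrrc4c, a synaptic adhesion gene, had a region at chr2:96255055-96255454 that averaged 65.3 ± 26 CPM in atrium against 21.1 ± 8.82 in ventricle (SD, n = 5), at the DNA minimum of 10 counts. The Gm3667 region (chr14:6888737-6889136) had 36.9 ± 12.7 and 8.77 ± 3.09 CPM. That gene belongs to a family of near-identical copies, between which the counting could split or share sequences, so its values are uncertain. At chr8:77988335-77988734, with no gene within 100 kb, atrium held 2092 ± 105 CPM and ventricle 692 ± 82.9.

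Among active ventricular regions the steepest lay in Tuba8 (chr6:121219496-121219895), an alpha-tubulin gene. It gave 13.5, 19.6, 14.1, 14.6 and 16.1 CPM in atrium and 83.8, 68.4, 55.9, 57.4 and 48.2 in ventricle, 4-fold higher in ventricle (log2 atrium over ventricle -1.998 ± 0.28 SE, adjusted p = 5.5e-05). Atrial RNA of this region was not distinguishable from DNA (0.052 ± 0.27), and ventricular RNA was above it (2.17 ± 0.23). Near Coq8a, which serves coenzyme Q synthesis, chr1:180210183-180210582 held 801, 729, 725, 832 and 794 CPM in atrium and 2557, 2039, 2278, 2153 and 2395 in ventricle. There the chambers were far apart in every library (log2 -1.56 ± 0.081, adjusted p = 2.2e-09), yet both were above DNA, by 2.71 in atrium and 4.39 in ventricle. The region 9977 bp from Myh7, the beta-myosin heavy chain, at chr14:55004404-55004803 had 175, 189, 255, 193 and 207 CPM in atrium and 602, 559, 556, 583 and 592 in ventricle (log2 -1.50 ± 0.12, adjusted p = 2.2e-07). Near Prss54, chr8:95596886-95597285 gave 552 ± 68.2 CPM against 1609.5 ± 144 (SD, n = 5, adjusted p = 2.1e-08).

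Further active ventricular regions lay near Itga6 (an integrin subunit that binds laminin), with 47.9 ± 10.2 CPM in atrium and 145 ± 41.7 in ventricle, and near Ccl20 (a chemokine), with 111 ± 35.9 and 325 ± 44.2. At chr7:68478186-68478585 and chr14:91604597-91604996, away from coding genes, the means were 155 against 458 and 14.9 against 41.8 CPM. In both the lowest ventricular library exceeded the highest atrial one. The region in Abcc9, the sulfonylurea receptor subunit of a potassium channel, was the least certain of this set. It held 7.89, 4.58, 4.86, 3.13 and 11.4 CPM in atrium and 40, 30.9, 13.1, 14.1 and 12 in ventricle, so that the lowest ventricular value only just passed the highest atrial one. Its adjusted p was 0.016 with all libraries, 0.053 without ventricular replicate 1, 0.051 without ventricular replicate 2 and 0.055 in replicates 2 to 5 alone.

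**Figure D2:**
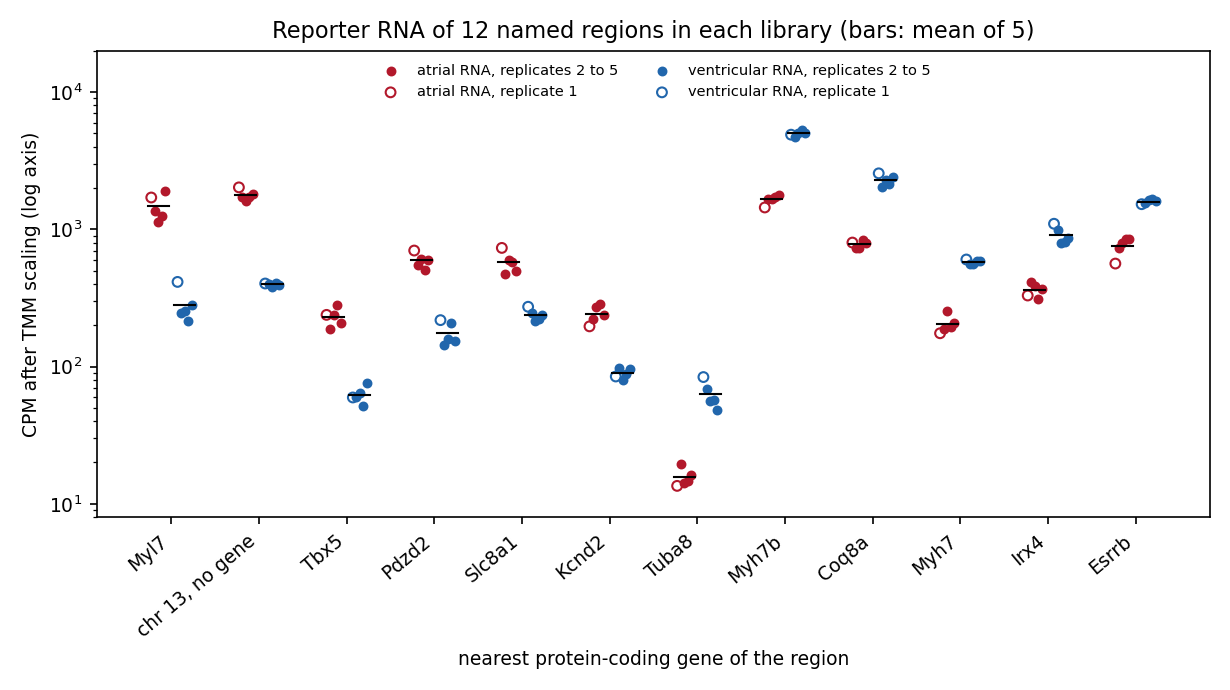
CPM after TMM scaling (log axis) of 12 regions, labelled by nearest protein-coding gene, in the 5 atrial (red) and 5 ventricular (blue) RNA libraries; open circles are replicate 1 and bars are means of 5. The 12 were taken from regions whose groups do not overlap, and the Myl7 region spans 1137 to 1906 CPM in atrium against 215 to 414 in ventricle.

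Regions that crossed DNA, above it in the favoured chamber and below it in the other, were few: 12 favoured atrium (0.461% of those tested) and 23 ventricle (0.884%). With activity from replicates 2 to 5 the numbers were 20 and 14, and with Neg scaling 40 and 4, so which kind was more frequent depended on these choices. Of the named atrial ones, chr9:73753550-73753949 lies in Unc13c, a gene of synaptic vesicle priming. It gave 409, 250.2, 181, 107 and 193 CPM in atrium and 66.6, 59.7, 96.8, 47.1 and 44.5 in ventricle, which on the log2 scale was 0.90 ± 0.28 over DNA in atrium and -0.85 ± 0.19 in ventricle. Replicate 1 was the highest atrial library here. A region in Slc20a2, a sodium-phosphate cotransporter gene (chr8:22505985-22506384), gave 160.1, 384, 441, 205 and 267 CPM in atrium and 74.4, 69.2, 106, 69.1 and 102 in ventricle, or 0.84 ± 0.24 and -0.82 ± 0.16 over DNA. For this region replicate 1 was the lowest atrial library, and the groups were still apart. Regions at chr8:88879837-88880236 and near Gm33099 (chr11:98342579-98342978) had 393 against 135 and 243 against 83.4 CPM.

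The ventricular counterpart with the highest level was chr2:155606268-155606667, 4776 bp from the myosin heavy chain gene Myh7b. It had 1442, 1665, 1650.5, 1729.6 and 1792 CPM in atrium and 4891, 4734, 4990.5, 5329 and 5009.9 in ventricle, a 3.01-fold difference (log2 -1.59 ± 0.07 SE, adjusted p = 3.4e-10). With a mean of 5651 DNA counts, this meant -0.92 ± 0.083 over DNA in atrium and 0.79 ± 0.087 in ventricle: a strong contrast around a modest level per DNA. In Med26, which encodes a Mediator subunit, chr8:72499591-72499990 gave 80.1, 137, 162, 124 and 148 CPM in atrium and 533, 414, 385, 375 and 314 in ventricle. The difference was -2.72 in the replicate 1 pair and -1.37 in replicates 2 to 5. A region inside Kcnq1 (a potassium channel of repolarisation, chr7:143385826-143386225) had 81.9 ± 15.5 and 184 ± 32.6 CPM, chr13:73290195-73290594 near Irx4 had 452 ± 58 and 908 ± 27.3, and the Rprd1b region had 181 ± 24.5 and 347 ± 38.2 (SD, n = 5). All 12 atrial and 23 ventricular regions of this kind kept their direction in every same-numbered pair of libraries, and all passed the chamber test in replicates 2 to 5 alone. The same libraries made these calls, so this is a description.

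Differences between low values were found at abundant constructs. All 184 low regions had a mean of at least 100 DNA counts, and 179 of them at least 300. Of all 2601 tested regions, 1747 had at least 100 and 1177 at least 300. Regions with few DNA counts may be harder to call below DNA, and the part of this was not tested. Among low atrial regions without overlap between the groups, the widest difference lay near Btg2, an antiproliferative gene (chr1:134093098-134093497). It had 115, 157, 67.5, 153 and 124 CPM in atrium and 33.7, 52.6, 35, 31.8 and 38.1 in ventricle, a 3.22-fold difference (log2 1.69 ± 0.26, adjusted p = 0.00013). Yet with 1517 mean DNA counts its RNA over DNA was -2.77 ± 0.19 in atrium and -4.34 ± 0.14 in ventricle, far below the typical region in both. The same pattern was seen near Srl, the sarcalumenin gene of the sarcoplasmic reticulum (chr16:4541776-4542175), at 710.4, 616, 479, 312 and 295 CPM in atrium and 126, 143, 202, 182 and 208 in ventricle. Atrial replicate 1 was the highest there, and the log2 ratios over DNA were -1.25 and -2.62. Inside Arhgap31 (a GTPase-activating protein gene, chr16:38625921-38626320) both groups were bright in CPM, 3926 ± 412 and 1456 ± 111, but the construct had 9382 DNA counts and the ratios over DNA were -0.40 and -1.72. The Wwox region had 89.1 ± 32.5 and 33.4 ± 11.5 CPM and the Shb region 166 ± 105 and 66.7 ± 18.3.

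Low regions that favoured ventricle had smaller contrasts, and none of the 33 reached 2-fold, against 35 of 151 in atrium. In Ehd4, a gene of endocytic recycling (chr2:120147957-120148356), the values were 571, 575, 446, 464 and 433 CPM in atrium and 874, 941, 912, 849 and 958 in ventricle. That was 1.82-fold (log2 -0.87 ± 0.10, adjusted p = 8.9e-06), with -1.26 and -0.27 over DNA. The regions of Tgfbi (a matrix protein), Tob2, Ilrun and Slc6a17 (an amino acid transporter) differed by 1.73-fold, 1.59-fold, 1.51-fold and 1.49-fold. The Slc6a17 call was lost with Neg scaling (adjusted p = 0.076) and with no DNA filter (0.051). Ventricular RNA over DNA of the 4 ran from -0.78 at Ilrun to -0.35 at Slc6a17.

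High CPM did not always go with activity over DNA. Among regions with at least a 2-fold difference and no overlap, ESC-Neg regions left out, the 5 with the highest atrial CPM were those in Tex14, Plekhh1 and Arhgap31, near Lhx3 and at chr8:77988335-77988734, and of these only the last was above DNA in atrium. Tex14, a germ-cell gene (chr11:87470970-87471369), held 13532, 10512, 9222, 8990.4 and 10366 CPM in atrium and 7764, 4798, 4289, 4487 and 4916 in ventricle, but its construct had 61575 mean DNA counts, and the ratios over DNA were -1.70 and -2.59. Plekhh1 (chr12:79044669-79045068) held 5316 ± 657 and 1598 ± 127 CPM (log2 1.73 ± 0.089, adjusted p = 2.2e-09), with atrial RNA not distinguishable from DNA (-0.17 ± 0.095). For Lhx3, a homeobox gene, the means were 4062 and 1954 CPM and the ratios over DNA -0.34 and -1.28. Among all calls of at least 2-fold, 67 of 127 atrial and 71 of 79 ventricular ones were above DNA in the favoured chamber. The 5 ventricular regions chosen in the same way as the 5 atrial ones were all above DNA in ventricle, near that ventricular share. They were the Myh7b region and those in Tgm2 (transglutaminase 2, 3146 ± 329 and 6516 ± 279.98 CPM), Cilk1 (a kinase of cilia, 1472 ± 100.4 and 3188 ± 193), Insr (the insulin receptor, 1302 ± 195 and 2633 ± 157) and Lrrfip1 (985 ± 64.4 and 2319 ± 221). The Insr region had 109 DNA counts and stood 5.59 ± 0.13 over DNA in ventricle and 4.44 ± 0.16 in atrium.

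Near genes of atrial cardiomyocytes, atrial calls outnumbered ventricular ones. Of 28 tested regions nearest to 13 such genes, 11 favoured atrium (39.3%) and 1 ventricle (3.57%), against 15.8% and 15.1% of all tested regions, and 16 had no call. They had a median log2 atrium over ventricle of 0.59 against 0.026 over all tested regions. The list was drawn up with earlier results of these data known, so its counts are a description. Of the 11, 6 were above DNA in atrium: the Myl7, Tbx5 and Bmp10 regions above, and regions of Myl4 (the atrial essential light chain), Sln (sarcolipin, a regulator of the calcium pump) and Ntm. The Myl4 region at chr11:104581447-104581846 had 155 ± 69 CPM in atrium and 60 ± 18.4 in ventricle, the Sln region 147 ± 16.9 and 94.1 ± 24.2, and the Ntm region 391 ± 90.9 and 262 ± 38.6 (SD, n = 5). The other 5 were below DNA in both chambers. They included another Myl7 region (889 ± 71.1 and 569 ± 115 CPM), another Myl4 region (72.9 ± 7.75 and 47 ± 8.71), 2 Kcnj5 regions and 1 near Nppb.

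Kcnj5 encodes a subunit of the acetylcholine-gated potassium channel of the atrium. At chr9:32292601-32293000 its region gave 1227, 1315, 1105, 1397 and 1704 CPM in atrium and 613, 625, 488, 562 and 553 in ventricle (2.38-fold, adjusted p = 6e-07), with -0.72 and -1.86 over DNA. Nppb encodes B-type natriuretic peptide, and chr4:147969386-147969785 gave 1229, 1286, 1363, 1356 and 1480.2 CPM in atrium and 721, 799, 701, 698 and 698 in ventricle (1.86-fold, adjusted p = 5.1e-07), with -0.91 and -1.69 over DNA. Both were called with little spread, and both stayed below DNA. The exception in direction was chr7:70409905-70410304 near Nr2f2, with 833, 789, 907, 811 and 807 CPM in atrium and 1536, 1341, 1409, 1357 and 1433 in ventricle. This region was above DNA in both chambers (0.53 and 1.42) and 1.71-fold higher in ventricle (adjusted p = 1.3e-06).

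Near genes of ventricular cardiomyocytes, 10 of 41 tested regions were higher in ventricle (24.4%) and 3 in atrium (7.32%), against 15.1% and 15.8% of all tested regions, with a median log2 of -0.16. Above DNA in ventricle were 8 of the 10, close to the 324 of 392 over all ventricular calls. Irx4 had 3 of them. The region at chr13:73277346-73277745 gave 329, 415, 384, 312 and 367 CPM in atrium and 1098, 985, 795, 805 and 861 in ventricle (log2 -1.33 ± 0.12, adjusted p = 4.1e-07), and chr13:73282371-73282770 had 574 ± 80.5 and 936 ± 53.3. The former was above DNA in both chambers (2.73 and 4.18), while the other 2 were near or below DNA in atrium. The Irx3 region, also of a homeobox gene, had 117 ± 23.7 and 315 ± 33.8 CPM (adjusted p = 7.1e-06). Next to the selective Myh7 region, the adjoining 400 bp (chr14:55004004-55004403) were brighter, 2870.5 ± 64.8 and 3516 ± 168 CPM, but differed by 1.22-fold only (adjusted p = 0.0013). A region in Myl3, the ventricular essential light chain, had 1353 ± 277 and 1998 ± 212 CPM.

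The exceptions near ventricular genes lay in Lbh and Prdm16. A region inside Lbh, a transcription cofactor gene (chr17:72926203-72926602), was above DNA in both chambers and higher in atrium (4031 ± 403 and 2644 ± 144 CPM, adjusted p = 1.7e-05). Another at chr17:73022611-73023010 was higher in ventricle (932 ± 91.3 and 1152 ± 102, adjusted p = 0.017) without differing from DNA there. Prdm16, a zinc-finger regulator gene, held 15 of the 41 tested regions, of which 3 were called, against 30.9% of all tested regions. Of these, 2 were higher in atrium (291 against 202 and 1110.3 against 787 CPM) and 1 in ventricle (329 against 493), all 3 below DNA in both chambers.

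**Figure D3:**
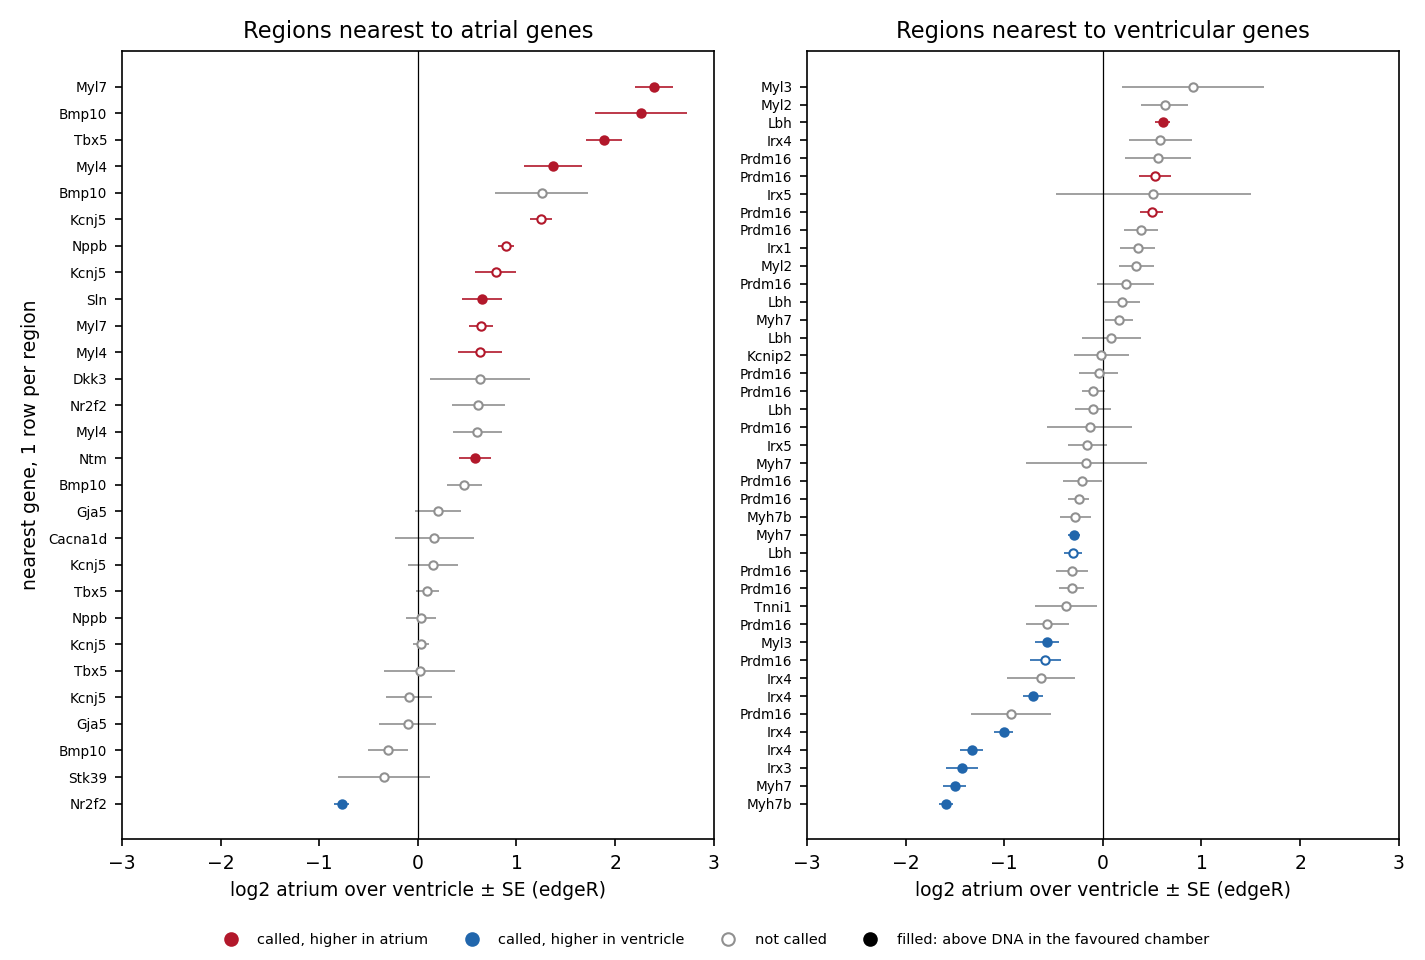
Log2 atrium over ventricle with its standard error (edgeR) for each tested region nearest to an atrial gene (left, 28 regions) or a ventricular gene (right, 41 regions), 1 row per region; red and blue were called higher in atrium or ventricle, grey was not called, and filled points were above DNA in the favoured chamber. On the left 11 regions are red and only the Nr2f2 region at the bottom is blue, and on the right 10 are blue and 3 red.

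Calcium handling and ion channel genes gave 7 ventricular (36.8%) and 4 atrial calls (21.1%) among 19 regions, against 15.1% and 15.8% of all tested regions. All 7 ventricular ones were above DNA in ventricle, as were 324 of 392 over all regions. Camk2d, the calcium/calmodulin kinase, had a region with 1354, 1358, 1625, 1355 and 1142 CPM in atrium and 2658, 2496, 2329, 2502 and 2359 in ventricle (adjusted p = 1.9e-06). The regions in Cacna1c (the L-type calcium channel) had 456 against 681 and 49.2 against 93.8 CPM, and that in Casq2 (calsequestrin) 1242 against 1775. In the atrial direction, the Slc8a1 region (chr17:81481598-81481997, sodium-calcium exchanger) gave 732, 473, 601, 577 and 496 CPM in atrium and 273, 244, 213, 222 and 239 in ventricle, and the Kcnd2 region (chr6:21267836-21268235, a channel of the transient outward current) gave 196, 223, 272, 284 and 238 and 84.6, 97.3, 80.1, 87.7 and 95.7. Despite the chamber difference, these 2 stood high over DNA in both chambers: 5.78 ± 0.21 and 4.63 ± 0.17 for Slc8a1, 5.26 ± 0.19 and 3.93 ± 0.20 for Kcnd2, on DNA counts of 19 and 11.4. Near Ryr2, the calcium release channel, chr13:12133447-12133846 was higher in atrium (667 ± 235 against 233 ± 35.1 CPM) and crossed DNA (0.91 and -0.49). Jph2 (junctophilin) held an active ventricular region (532 ± 55.4 and 871 ± 43.3 CPM) and a low atrial one (294 ± 97 and 128 ± 42.7).

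In sarcomere and Z-disc genes, 3 of 10 regions were higher in ventricle (30%) and 2 in atrium (20%), against 15.1% and 15.8% of all tested regions. Ldb3, a Z-disc protein gene, had 1043 ± 32.3 CPM in atrium and 1517 ± 152 in ventricle, and Csrp3 (muscle LIM protein) 1048 ± 150.02 and 697 ± 60.2. Among cardiac transcription factor genes the calls were 3 and 3 of 18 (16.7% each way), a share near that of all tested regions. The atrial ones included a region near Myocd (myocardin), 205 ± 41.2 and 102 ± 16 CPM, and one in Tead1, 373 ± 22.8 and 242 ± 44.5. A region in Zfpm2, a GATA cofactor gene, was higher in ventricle (57.8 ± 12.9 and 102 ± 19.1). Of 15 regions of energy metabolism genes, 4 were higher in ventricle (26.7%), all above DNA there, and 2 in atrium (13.3%), neither above DNA. The atrial share was near that of all regions. The ventricular ones were the Coq8a region and those in Esrrb (563, 735, 794, 843 and 856 CPM in atrium, 1524, 1552, 1622, 1649 and 1607 in ventricle), Esrrg (165 and 267) and Lpl. Esrrb and Esrrg encode estrogen-related receptors, and Lpl lipoprotein lipase. In Ppargc1b, a coactivator of those receptors, the region was higher in atrium (619.96 ± 61.6 and 330.2 ± 52 CPM) but below DNA in both chambers (-0.996 and -1.79).

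Of 9 regions near endothelial, fibroblast, smooth muscle and epicardial genes, 3 were higher in ventricle (33.3%) and 2 in atrium (22.2%), against 15.1% and 15.8% of all tested regions. Vcam1, an adhesion molecule gene, had a region at chr3:116072598-116072997 with 452, 507, 505, 482 and 466 CPM in atrium and 924, 887, 876, 820.4 and 866 in ventricle, 4.45 and 5.43 over DNA. S1pr1, a lipid receptor gene, had regions in opposite directions: chr3:115622269-115622668 was higher in ventricle (171, 316, 308, 321 and 348 against 577, 775, 781, 661 and 695 CPM, adjusted p = 3.2e-05) and chr3:115737856-115738255 in atrium (798, 684, 704, 636 and 871 against 492, 468, 437, 405 and 384, adjusted p = 7.3e-05). Both were above DNA in both chambers. The region near Cnn1, a smooth muscle gene, was called higher in atrium on few counts (12.8 ± 11.6 against 1.23 ± 1.41 CPM, adjusted p = 0.015), with overlapping libraries and a ventricular library at 0.

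The tags in the region identifiers divided the calls. Tag aMTF, carried by 419 tested regions, had 96 atrial (22.9%) and 45 ventricular calls (10.7%), and tag vMTF, carried by 524, had 63 (12%) and 148 (28.2%), against 15.8% and 15.1% of all tested regions. Above DNA in the favoured chamber were 51 and 41 of the aMTF calls and 37 and 135 of the vMTF calls. Over all tested regions these were 181 of 412 atrial and 324 of 392 ventricular calls. Tag GeneAVB had 183 atrial (21.2%) and 117 ventricular calls (13.5%) of 865, of which 71 and 84 were active. Of its atrial calls 75 were differences between low values, a share near the 151 of 412 over all tested regions. Tag p300AVB had 93 (22.1%) and 31 (7.36%) of 421, of which 44 and 26 were active. Split by the suffix +p300 or -p300, the atrial and ventricular calls were 68 (25.6%) and 29 (10.9%) of 266 for aMTF+p300, and 28 (18.3%) and 16 (10.5%) of 153 for aMTF-p300. They were 44 (11.3%) and 114 (29.3%) of 389 for vMTF+p300, and 19 (14.1%) and 34 (25.2%) of 135 for vMTF-p300. With activity from replicates 2 to 5, the active calls were 51 and 40 for aMTF, 37 and 132 for vMTF, 70 and 81 for GeneAVB, and 45 and 26 for p300AVB. The tags are used as given, and a region can carry several.

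The share of atrial calls rose with DNA abundance, while the ventricular share changed less. Among 854 regions with 10 to under 100 mean DNA counts, 53 favoured atrium (6.21%) and 104 ventricle (12.2%). In the 570 with 100 to under 300 the calls were 69 (12.1%) and 97 (17%), and in the 1177 with 300 or more 290 (24.6%) and 191 (16.2%). Over all tested regions the shares were 15.8% and 15.1%. Low atrial calls numbered 0, 5 and 146 in these bins and low ventricular ones 0, 0 and 33, against 5.81% and 1.27% of all tested regions. Active atrial calls numbered 50, 51 and 80 (5.85%, 8.95% and 6.8%, against 6.96% of all tested regions). Active ventricular ones numbered 100, 92 and 132 (11.7%, 16.1% and 11.2%, against 12.5%). With activity from replicates 2 to 5 the low calls were 0, 7 and 152 atrial and 0, 1 and 39 ventricular, and the active calls 50, 51 and 80 atrial and 100, 92 and 123 ventricular. The part of DNA abundance in these counts was not tested.

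**Figure D4:**
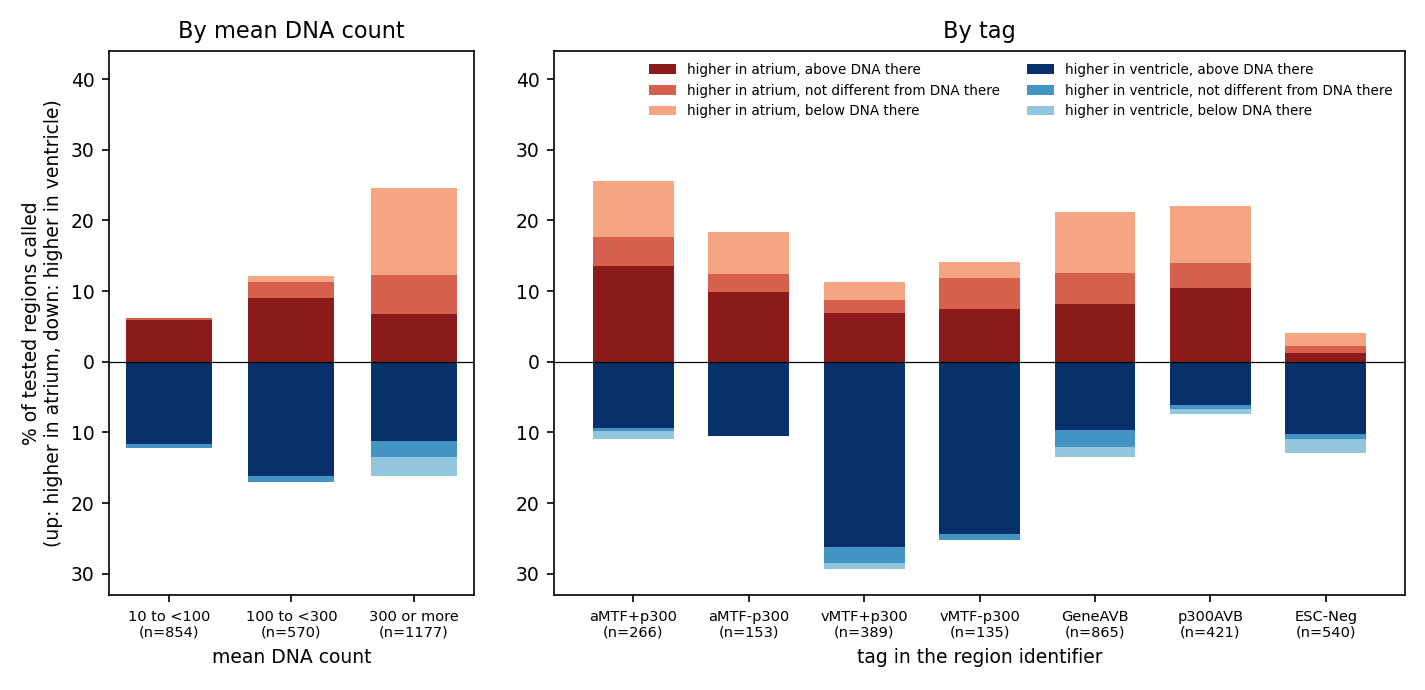
Percent of tested regions called higher in atrium (upward, red) or in ventricle (downward, blue), by mean DNA count (left) and by tag (right), with shades for RNA above, not different from or below DNA in the favoured chamber and n the number of regions tested. Low calls make up 146 of the 290 atrial calls at 300 or more DNA counts, and 135 of the 148 ventricular calls with tag vMTF were active.

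Regions tagged ESC-Neg, a name that marks negative controls, also held chamber calls: 22 of 540 favoured atrium (4.07%) and 70 ventricle (13%), of which 7 and 55 were above DNA in the favoured chamber. The ventricular share was near the 15.1% of all tested regions, and the atrial share was below their 15.8%. At chr11:22629578-22629977, with no gene within 100 kb, the values were 2256, 2222, 3029, 2592 and 2734 CPM in atrium and 756, 729, 912, 759 and 926 in ventricle, a 3.14-fold difference (adjusted p = 1.9e-08) that crossed DNA (1.20 ± 0.086 and -0.34 ± 0.083). The Macf1 and Gm38457 regions had 307 ± 119.7 against 136 ± 21.1 and 299 ± 45.8 against 144 ± 16.1 CPM. In the other direction, chr11:98926399-98926798, 1202 bp from the retinoic acid receptor gene Rara, gave 518, 619, 767, 575 and 616 CPM in atrium and 1734, 1677, 1666, 1546 and 1616 in ventricle (2.66-fold, adjusted p = 3.7e-08). Regions near Prokr2 and in Lmf1 had 33.6 ± 11.4 against 89.4 ± 19.5 and 273 ± 38 against 685 ± 51.2. When activity had to exceed the 95th percentile of the 469 regions of group Neg, a log2 RNA over DNA of 2.505 in atrium and 2.97 in ventricle, 48 atrial and 82 ventricular calls remained active.

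Neighbouring regions did not always favour the same chamber. Of 132 pairs with midpoints within 1 kb, 8 had both regions called, 4 in the same and 4 in opposite directions. From 1 to 10 kb, 24 of 35 such pairs went the same way, and from 10 to 50 kb 59 of 107. Over all tested regions 30.9% were called, 15.8% for atrium and 15.1% for ventricle. The shares for pairs of distant regions were not computed, so these counts are a description. The opposite pairs, looked at after their values were seen, lay in Syt7, Eps8, Nav2 and Tg. In Syt7, a calcium sensor gene of vesicle fusion, chr19:10417001-10417400 was higher in ventricle (1554 ± 110.3 CPM in atrium, 3025 ± 351 in ventricle, SD, n = 5) and above DNA in both chambers (1.56 and 2.64). Its midpoint was 319 bp from that of chr19:10417320-10417719, which overlaps it and was higher in atrium, with 265, 476, 239, 458 and 184 CPM in atrium and 125, 104, 130.1, 82.3 and 87.8 in ventricle. The latter was above DNA in atrium (0.69) and below it in ventricle (-0.82). Overlapping stretches of the same locus thus had chamber differences of -0.96 ± 0.086 and 1.62 ± 0.26 on the log2 scale (SE, adjusted p = 4.9e-07 and 0.00024). In Eps8 the adjoining tiles chr6:137470854-137471253 and chr6:137471254-137471653 differed by -0.61 ± 0.19 and 0.62 ± 0.21, the former active in ventricle and the latter low. For the adjoining Nav2 tiles, whose midpoints are 400 bp apart, the differences were -0.69 ± 0.18 and 0.42 ± 0.14. The Nav2 tile higher in atrium had an adjusted p of 0.038, and its call was lost without any of 8 of the 10 libraries, with adjusted p up to 0.11. In Tg the regions had 62.5 against 100.2 and 45.8 against 17.4 CPM.

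Of 157 genes with at least 3 tested regions, 64 had at least 2 chamber calls: 22 with atrial calls only, 12 with ventricular calls only and 30 with both. With 30.9% of all tested regions called, several calls near 1 gene are common, and these counts are a description. Neighbours share a locus and are not replicates. Ampd3, an AMP deaminase gene, had 3 atrial calls among 4 regions, with 449 ± 51.2 against 234 ± 39.2, 1028 ± 129 against 807 ± 44.6 and 591 ± 99.3 against 428 ± 28.8 CPM, the last of them below DNA. Sparcl1, a matricellular protein gene, had 3 of 3, none above DNA: 361 against 144, 311 against 222 and 635 against 419 CPM. The call at chr5:104128274-104128673 was lost without any of 6 libraries (adjusted p 0.054 to 0.088), and the one at chr5:104128784-104129183 in replicates 2 to 5 alone (adjusted p = 0.056). Trabd2b, a Wnt-cleaving protease gene, had 3 active ventricular regions (162 against 229.9, 997 against 1693 and 243 against 412 CPM) and 1 low atrial region (323 against 169.9). The first of the ventricular calls was lost with Neg scaling (adjusted p = 0.089). Fhad1 had an active atrial (442 against 188), an active ventricular (95.5 against 176) and a low atrial region (98.7 against 48.3).

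Ddc, which encodes the decarboxylase of dopamine and serotonin synthesis, had 2 calls each way among 5 regions. The active atrial one, chr11:11828700-11829099, had 80.1, 102, 87, 103 and 375 CPM in atrium and 41.5, 69.2, 57.2, 45.9 and 58.7 in ventricle. Atrial replicate 5 was far above the rest, and without it the log2 difference went from 1.45 ± 0.41 (SE) to 0.76 (adjusted p = 0.019). The ventricular ones had 53.1 against 100.05 and 325 against 460.3 CPM. Both ventricular calls were lost in replicates 2 to 5 alone (adjusted p = 0.058 and 0.06), the former also without ventricular replicate 5 (0.063) and with no DNA filter (0.067), the latter also with Neg scaling (0.067). The low atrial one (587 against 417) had an adjusted p of 0.05, just under the threshold before rounding, and its call was lost without any of 7 libraries, with adjusted p of 0.057 to 0.14. Near Zfp90 a region at chr8:106378353-106378752 was higher in ventricle (597 ± 74.5 against 882 ± 84.7 CPM, adjusted p = 0.00065) and below DNA, opposite to the Gm34026 promoter region given above.

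The replicate 1 pair, which stood apart in its content, gave the same directions. Its atrial library was above its ventricular one in 407 of the 412 atrial calls and below it in 388 of the 392 ventricular calls, and the other pairs matched in 389 to 405 and in 384 to 389. Every pair entered the fit that made these calls, so such agreement is partly built in. With replicate 1 left out of both groups, 391 regions favoured atrium and 328 ventricle, 356 and 307 of them shared with the calls from all libraries. Of the 719 regions called there, the replicate 1 pair, which that fit did not use, went the same way in 688. Of the active calls, 160 of 181 atrial and 263 of 324 ventricular ones were also called between chambers in replicates 2 to 5, as were 130 of 151 and 20 of 33 low ones.

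**Figure D5:**
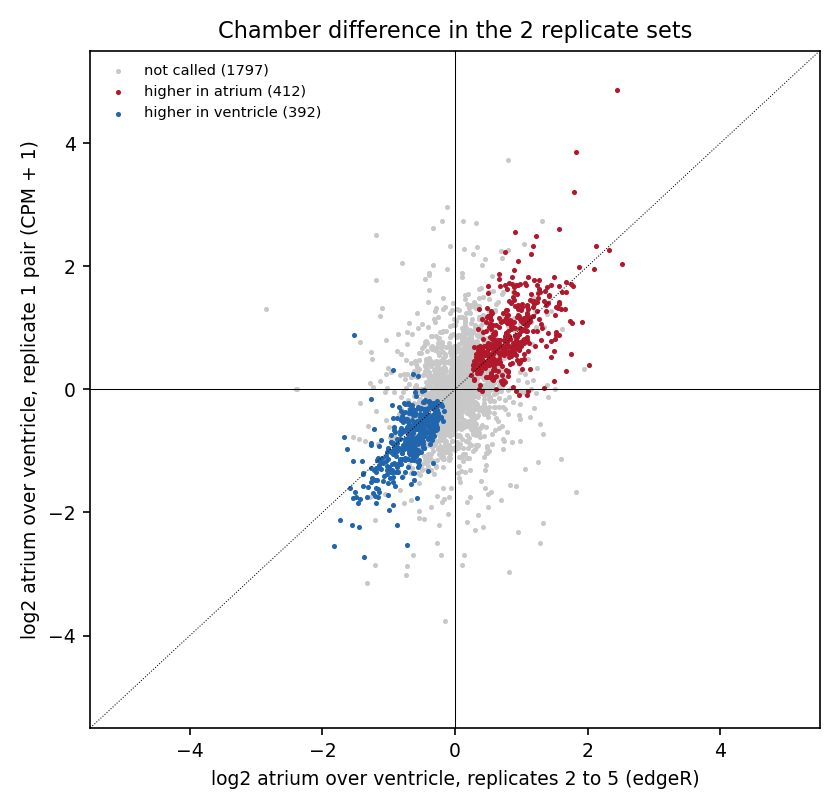
Log2 atrium over ventricle from edgeR on replicates 2 to 5 (horizontal) and of the replicate 1 pair (vertical, CPM plus 1) for the 2601 tested regions, with red for atrial calls, blue for ventricular calls and grey for no call. Nearly all called regions lie in the quadrants of equal sign (407 of 412 and 388 of 392 by the pair), while uncalled regions spread more along the vertical axis. The calls are from all RNA libraries, so both axes show libraries that entered them.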

How the data were processed

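The deposited values are raw whole-number counts per region from the authors, 1 column per library. The combined table and the 15 single-library tables differed in 0 values. Per the submitters' processing notes, cutadapt 2.5 and Bowtie2 2.3.4.3 were used with the build mm10. Per the labels' protocols the primer carried a molecular identifier (UMI). UMI collapsing of the counts: not given in the sources used here. Limits at 0 counts cover counting error only. Groups and replicate numbers came from the labels.

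The quasi-likelihood test of edgeR 4.0.16 (R 4.3.3, robust, TMM factors, library sizes over tested regions) was fitted on the 10 RNA libraries for atrium against ventricle, and on 5 RNA and 5 DNA libraries for each chamber over DNA. The Benjamini-Hochberg adjustment ran over all 2601 tested regions, with a threshold of 0.05, and each standard error is the size of the log2 difference divided by the square root of F. The script was tested on simulated data. Same-numbered atrial and ventricular libraries deviated together from the means of their groups (correlation 0.823 for replicate 1 and 0.225 to 0.237 for the others). Replicate 1 stood apart in both groups and enters both means, and libraries with unlike numbers were not compared. Whether the numbers mark pairs is therefore not settled, and the main fit did not use them. Genes are the protein-coding gene nearest to a region's midpoint by gene body, in RefSeq's GRCm38 annotation, which shares its build with mm10, and 3423 of 3820 regions had one within 100 kb.

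The members and gene lists were chosen with earlier results of these data known. Regions are named as the 12 most selective active ones and the 5 most selective low and crossing ones in each direction. The 5 abundant ones in each direction had the highest mean CPM in the favoured chamber among differences of at least 2-fold. Up to 4 for each gene list, the genes with the most calls, and 3 ESC-Neg regions in each direction were also named. All of these passed the test, and outside the gene loci their libraries do not overlap. Neighbouring pairs, promoter regions and other list members were added after their values were seen. By this rule 2 further regions qualified, which are not reported here but stay in all counts. Motifs were read in promoter windows instead of whole regions, since no genome sequence was used here. Alternatives were other scalings, tests (DESeq2 1.42.0, voom of limma 3.58.1), filters and activity thresholds, a replicate block and fits without single libraries.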

Additional observations from a re-analysis of the deposited data

Results flagged for a closer look

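Of 202 sets of 5 libraries looked at for the named regions, 13 held a library whose gap to the nearest other was more than 0.71 of the range, which chance gives for about 1 in 20 sets. Replicate 1 was the library in 5 of the 13. In atrium these were replicate 2 at the Lrrc4c region (111 CPM against 48.5 to 63.6 in the others), replicate 3 at Shb (349 against 88.4 to 149), replicate 5 at Tgfbi (166 against 260 to 289), replicate 1 at the ventricular S1pr1 region (171 against 308 to 348), replicate 5 at an atrial Ddc region (375 against 80.1 to 103) and replicate 4 at Adrb1 (817 against 590 to 638). In ventricle they were replicate 1 at the chromosome 7 region without a gene (540 against 419 to 452), at Ccl20 (249 against 330 to 363), at Tex14 (7764 against 4289 to 4917) and at a ventricular Ddc region (549 against 423 to 455), replicate 4 at Ilrun (475 against 363 to 390), replicate 5 at Rprd1b (281 against 353 to 377) and replicate 2 at Nppb (799 against 698 to 721).

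Of the 1211 regions under the DNA minimum that had RNA counts, 39 passed the chamber test when no DNA filter was used, 12 higher in atrium and 27 in ventricle. Their activity over DNA was not analysed here.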

How the results depend on the processing

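No region called in any of the 21 alternative fits of the chamber test had the opposite sign there. With the replicate block the atrial calls were 441 and the ventricular ones 428, the active ones 197 and 352, and no count of a class moved by over 1.5 times. Library totals as scaling gave 20 low ventricular regions and 19 atrial and 10 ventricular crossing ones. Neg scaling gave 237 regions higher in ventricle, 287 active atrial, 215 active ventricular and 8 low ventricular regions, with 40 and 4 crossing. Against a 1.5-fold null, 95 and 86 regions passed. Crossing atrial regions numbered 19 with DESeq2 and with no DNA filter. A minimum of 100 DNA counts left 96 low atrial, 20 crossing atrial and 14 crossing ventricular regions, replicates 2 to 5 alone gave 22 and 15 crossing, and activity from replicates 2 to 5 gave 20 and 14. Requiring 2-fold over DNA left 1 and 0 crossing regions, and requiring the Neg 95th percentile left 48 active atrial, 82 active ventricular and 0 and 0 crossing. Without single libraries, crossing atrial regions ranged from 12 to 19, the highest without ventricular replicate 1. The cause of these shifts was not tested.

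Of 101 named regions, 59 passed under every alternative. Outside the 1.5-fold null 12 lost the call somewhere, 6 of them in a fit without 1 library. Among the 854 regions with 10 to under 100 mean DNA counts, low calls numbered 0 in atrium and 0 in ventricle. Regions with few DNA counts may be harder to call below DNA, and differences there may go undetected. The part of depth in this was not tested.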
